A study of Heterocephalus glaber and Mus musculus with 9 samples.

Results

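Cell division is run by cyclin-dependent kinases (CDKs), which are switched on by cyclins and held back by CDK inhibitors, and is carried out by the machines of mitosis. The genes described here are those rows of the spleen expression table whose symbols begin with the family names Kif, Aurk, Plk, Ska, Anapc, Smc, Cenp, Bub, Ncap, Cdkn, Cdk, Ccna, Ccnb, Ccnd or Ccne followed by a family member. They were picked out by symbol, under a rule set with earlier results of these data known, and number 112 of the 12946 genes. A further 15 rows share only the first letters with a family (for example Skap1 and Smcr8) and were left out. By role, the 112 genes are 8 mitotic kinases and checkpoint genes, 9 mitotic kinesins, 19 centromere and kinetochore genes, 11 condensin and SMC genes, 6 cyclins, 5 cell-cycle CDKs, 6 CDK inhibitors, 8 subunits of the anaphase-promoting complex, 24 other kinesins, 10 transcriptional and other CDKs, and 6 regulators or genes named after a CDK or cyclin. Cdk1, Ccna2, Ccnb1, Aurkb, Bub1b, Kif11 and Cdkn2a were not analysed here.

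RNA was sequenced from the whole spleens of 9 healthy, untreated animals, with 1 library per animal. The mice were 3 males of the C57Bl/6N strain aged 2 months, housed at about 22°C. The 6 naked mole-rats (NM-Rs), housed at 29°C, were split by spleen size into animals with small spleens (ssNM-R 2, 3 and 6, all male, aged 30, 26 and 23 months) and animals with enlarged spleens (lsNM-R 1, 4 and 5, aged 24, 29 and 23 months, of which number 4 was female and the others male). No allele, transgene or agent separates the groups, and species, age, housing temperature and the gene models used for counting cannot be told apart in any comparison of NM-R with mouse.

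In the cell cycle, D-type cyclins with Cdk4 or Cdk6 and E-type cyclins with Cdk2 drive entry into DNA replication, and B-type cyclins drive entry into mitosis. Condensin then compacts the chromosomes, kinetochores built on the centromere tie them to the spindle, kinesin motors move and align them, and the anaphase-promoting complex ends mitosis by marking cyclin B and securin for destruction. In the spleen, dividing cells are found among erythroblasts of the red pulp, among progenitors and in germinal centres of the white pulp.

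Values are normalized counts, that is, reads of a gene scaled by the size factor of its library and not by gene length, so levels were compared between animals and not between genes. The libraries held 7815326 to 18387599 reads, and 1 read was worth 0.627 to 1.501 normalized counts. The spleen identity of the libraries was examined with marker lists: the summed level of 11 B cell markers was 62381, 62056 and 63430.4 in the mice and 3781 to 9053 in the 6 NM-Rs, and that of 13 T cell markers was 18452, 19181 and 19983 in the mice and 4487 to 9323 in NM-Rs. The 16 erythroid markers summed to 30091, 71794 and 90388 in the mice and to 217090.0 to 322369 in NM-Rs. In such bulk tissue, fewer cells of a type and less RNA per cell cannot be told apart.

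Many genes of mitosis carry a CHR element, a short motif through which the DREAM and MuvB complexes are known to hold cell-cycle genes silent in resting cells, often next to CCAAT boxes bound by NF-Y. The mouse promoters (mm9 genome, GENCODE vM1 gene models, 250 bases before to 50 bases after the start of transcription) were searched for the CHR letters TTTGAA or TTCGAA and for CCAAT, each on both strands. The reverse complement of the first is TTCAAA and of the last ATTGG. Promoters were found for 108 of the 112 members and for 10309 genes of the table. The 7 stretches printed first are the members of the mitotic roles with the highest NM-R to mouse fold changes among those with a CHR match within 50 bases of the start and inside the stretch, and the last 2 have the lowest fold changes among members whose promoter was found and which averaged 10 or more in both species. Each runs 5′ to 3′ on the gene's own strand from 100 bases before the start through the first 20 transcribed bases, with CHR and CCAAT matches in capitals.
Cenpf (chr1:191511946-191512065, minus strand): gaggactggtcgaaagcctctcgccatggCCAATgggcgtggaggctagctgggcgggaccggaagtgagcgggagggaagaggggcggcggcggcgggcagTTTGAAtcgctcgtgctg
Kif18b (chr11:102786419-102786538, minus strand): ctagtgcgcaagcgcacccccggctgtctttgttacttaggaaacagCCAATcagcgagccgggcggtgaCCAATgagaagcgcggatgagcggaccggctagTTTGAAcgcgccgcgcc
Kif22 (chr7:134185915-134186034, minus strand): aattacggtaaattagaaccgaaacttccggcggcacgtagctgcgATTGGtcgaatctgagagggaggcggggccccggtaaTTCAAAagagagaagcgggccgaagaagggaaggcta
Ncapg (chr5:46061061-46061180, plus strand): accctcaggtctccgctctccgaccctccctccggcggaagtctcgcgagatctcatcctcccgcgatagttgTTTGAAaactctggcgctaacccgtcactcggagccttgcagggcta
Ccnb2 (chr9:70269342-70269461, minus strand): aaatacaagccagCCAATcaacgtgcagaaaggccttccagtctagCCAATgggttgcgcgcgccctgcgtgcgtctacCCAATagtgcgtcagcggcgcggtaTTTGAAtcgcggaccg
Cenpw (chr10:29920327-29920446, minus strand): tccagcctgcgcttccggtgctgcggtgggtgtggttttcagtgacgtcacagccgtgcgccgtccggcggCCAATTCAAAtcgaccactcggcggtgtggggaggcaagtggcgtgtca
Kif15 (chr9:122860099-122860218, plus strand): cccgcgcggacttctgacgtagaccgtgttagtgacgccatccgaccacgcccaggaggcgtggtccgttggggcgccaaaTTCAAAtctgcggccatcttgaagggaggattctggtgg
Kif21b (chr1:138027866-138027985, plus strand): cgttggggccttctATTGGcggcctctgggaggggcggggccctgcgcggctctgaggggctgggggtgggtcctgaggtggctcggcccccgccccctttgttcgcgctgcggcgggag
Cdk14 (chr5:5420293-5420412, minus strand): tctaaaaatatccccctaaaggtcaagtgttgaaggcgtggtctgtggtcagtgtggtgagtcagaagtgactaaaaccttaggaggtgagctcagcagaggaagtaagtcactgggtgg

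The CHR letters began at position -17 from the start in Kif22, -27 in Ncapg, -25 in Cenpw and -19 in Kif15, and just past the start in Cenpf, Kif18b and Ccnb2. Ccnb2 had 3 CCAAT boxes in its stretch and Kif18b had 2, whereas Ncapg and Kif15 had 0. In Cenpw the CHR and CCAAT matches overlap by 1 base. Neither Kif21b nor Cdk14 held the CHR letters in this stretch.

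Within 50 bases of the start, 23 of the 108 member promoters (21.3%) held the CHR letters, against 339 of the 10309 promoters (3.29%). The matches lay in 5 of 9 mitotic kinesins, 4 of 8 mitotic kinases and checkpoint genes, 4 of 11 condensin and SMC genes, 5 of 17 centromere and kinetochore genes and 1 of 6 cyclins. Among the other roles they lay in 2 of 23 other kinesins, 1 of 10 transcriptional and other CDKs and 1 of 6 regulators and genes named after a CDK or cyclin. They lay in 0 of 8 subunits of the anaphase-promoting complex, 0 of 6 CDK inhibitors and 0 of 4 cell-cycle CDKs. CCAAT was found, with or without the CHR letters, in 41.7% of member promoters and 36.7% of all promoters. Of the 23 members with a CHR match near the start, 21 were higher in NM-Rs than in mice by the test given below and 1 was lower, with a median log2 fold change of 1.79, while of the other 85 members 42 were higher and 26 lower, with a median of 0.21. The 2 sets also differ in role, as the matches lay mostly in the mitotic roles. All 9 mitotic kinesins, for example, were higher, with or without a match. Motif and role were not separated here. Among all 339 genes with such a match, 47.2% were higher and 34.2% were lower in NM-Rs, against 39.6% and 38.3% of the 9970 genes without one. The NM-R promoters were not analysed here, and a match of letters is not a bound site.

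**Figure D1:**
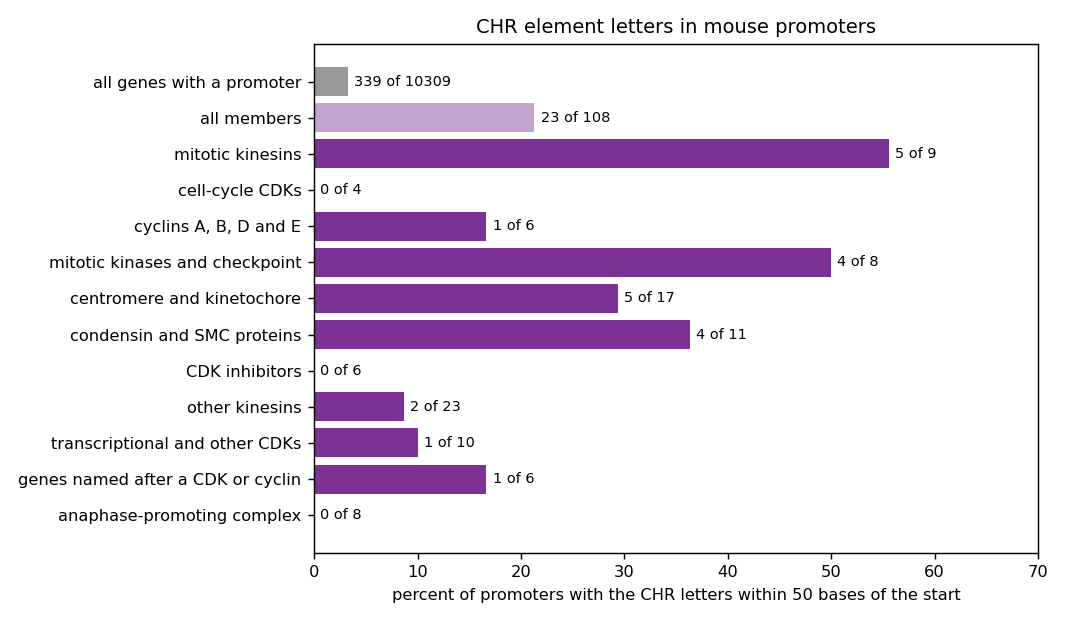
Percent of mouse promoters with the CHR letters within 50 bases of the start, by role, with the number of promoters beside each bar. Bars of the mitotic kinesins (5 of 9) and the mitotic kinases and checkpoint genes (4 of 8) are the longest, and the bar of all genes stands at 3.29%.

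NM-R spleens held more mRNA of most mitotic genes than mouse spleens and less of most anaphase-promoting complex subunits. Of the 112 members, 66 rose and 28 fell in NM-R relative to mouse and 18 were not called, where a call is a Benjamini-Hochberg adjusted p under 0.05 over all genes in limma on log2(normalized count + 1). The background is high, since 39.7% of all genes were called higher and 38.8% lower. The median log2 fold change was 0.93 over the members and 0.01 over all genes. Members ranged from -4.19 (Smc1b, a fitted value that depends on the pseudocount) to 4.42 (Cdk3). The top of the range depends on the pseudocount too. Kif12, without reads in the mice, stood at 4.11 here, at 5.06 with a pseudocount of 0.5 and at 7.13 in edgeR. In 62 members all 6 NM-R spleens lay above all 3 mice, which held for 36.4% of all genes, and in 26 members all lay below, which held for 36.2%. Without mouse 1, 65 members were higher and 27 lower and the median was 0.72.

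**Figure D2:**
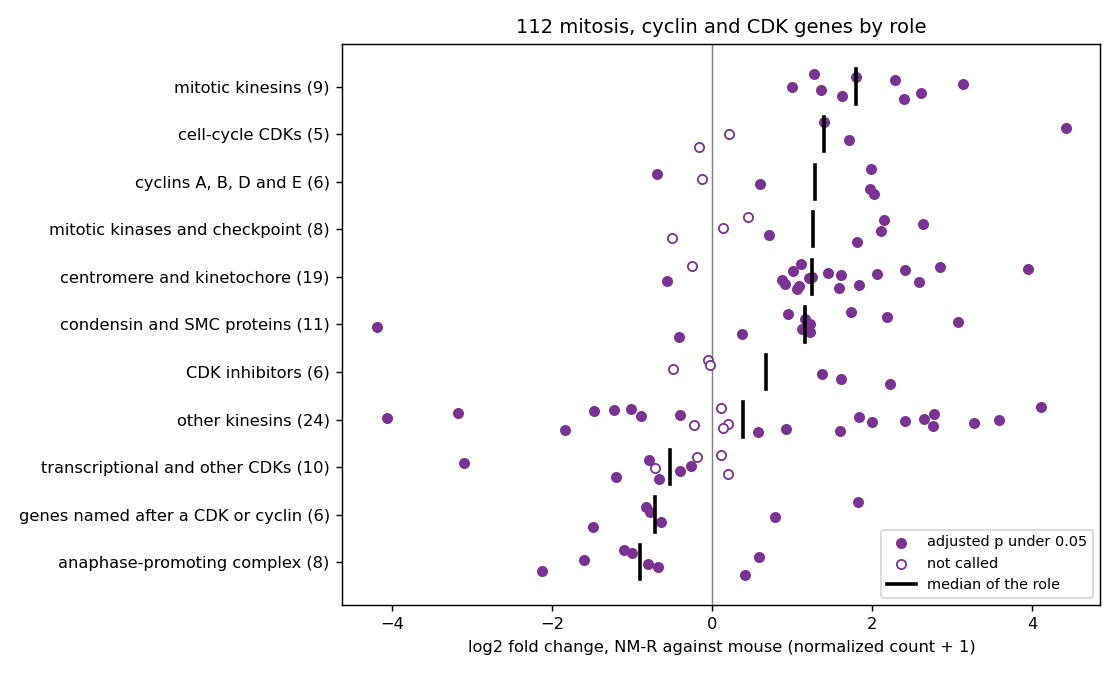
Each point is 1 of the 112 members, placed by its log2 fold change of NM-R (6 spleens) against mouse (3 spleens) and grouped by role, with the number of genes in brackets and filled points for adjusted p under 0.05. All 9 mitotic kinesins lie to the right of 0, while 6 of the 8 anaphase-promoting complex subunits and 6 of the 10 transcriptional and other CDKs are called to the left.

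Among the mitotic kinases and checkpoint genes, 5 of 8 were higher and 0 lower in NM-Rs (median log2 fold change 1.26). With genes under a mean of 10 normalized counts left out, which removes Aurkc, 4 of 7 were higher and the median was 0.71. Plk1, the polo-like kinase that drives spindle assembly and mitotic exit, stood at 385, 621 and 847 normalized counts in mice 1, 2 and 3, 2939, 2887 and 2435 in ssNM-Rs 2, 3 and 6, and 2263, 2589 and 2150.2 in lsNM-Rs 1, 4 and 5. All 6 NM-R spleens lay above the mice, by 4.12-fold in the means (log2 fold change 2.10 ± 0.21 (SE), adjusted p = 6.3e-06). Bub1, a kinase of the spindle checkpoint, was measured at 227, 385 and 408 normalized counts in mice 1, 2 and 3, 2344, 1814 and 1672 in ssNM-Rs 2, 3 and 6, and 1942, 2642 and 2029.8 in lsNM-Rs 1, 4 and 5. The NM-R spleens again lay above every mouse, 6.103-fold (log2 fold change 2.64 ± 0.20 (SE), adjusted p = 9.4e-07). Plk4, which starts centriole duplication, rose 3.43-fold, and Plk2, a stress-linked relative of Plk1, 1.67-fold. Aurka, the kinase of the spindle poles, stood at 249, 436 and 588 normalized counts in mice 1, 2 and 3, 600.3, 563 and 514 in ssNM-Rs 2, 3 and 6, and 542, 591 and 457 in lsNM-Rs 1, 4 and 5. Mouse 3 overlapped the NM-Rs and Aurka was not called (log2 fold change 0.44 ± 0.23 (SE), adjusted p = 0.0999), although it was called without mouse 3 (adjusted p = 0.012 in limma). Bub3 was at 1453 ± 206 (SD, n = 3) in mice and 1593 ± 204 (SD, n = 6) in NM-Rs and was not called (adjusted p = 0.372 in limma). Plk3 was at 214 ± 16.4 (SD, n = 3) in mice and 157 ± 54.5 (SD, n = 6) in NM-Rs and was not called (adjusted p = 0.087 in limma), but was called lower without ssNM-R 6 (adjusted p = 0.0158) or without lsNM-R 5 (adjusted p = 0.0333). Aurkc, a germ cell relative of Aurka, had 2 reads in the 3 mice together and 51 in the NM-Rs, a ratio of 10.9 with a 95% exact interval of 2.87 to 92.6 that covers counting error only.

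All 9 mitotic kinesins were higher in NM-Rs, with a median log2 fold change of 1.79 and fold changes from 1.96 in Kif20a to 8.100 in Kif18b, and in each of the 9 all NM-R spleens lay above all mice. Kif18b, which trims the plus ends of astral microtubules, stood at 258, 502 and 741 normalized counts in mice 1, 2 and 3, 4183, 4385 and 4535 in ssNM-Rs 2, 3 and 6, and 4025, 3741 and 3455 in lsNM-Rs 1, 4 and 5. Every NM-R lay far above mouse 3, the highest mouse (log2 fold change 3.14 ± 0.26 (SE), adjusted p = 1.8e-06). Kif22, the chromokinesin that pushes chromosome arms outward, stood at 291, 598 and 883 normalized counts in mice 1, 2 and 3, 3869.9, 3037 and 3281 in ssNM-Rs 2, 3 and 6, and 2921, 3606 and 3042 in lsNM-Rs 1, 4 and 5. Mouse 1 was the lowest and mouse 3 the highest of the mice, and the NM-Rs exceeded them 5.58-fold in the means (log2 fold change 2.61 ± 0.28 (SE), adjusted p = 1.2e-05). Kif2c, the microtubule depolymerase of the centromere, rose 5.16-fold, Kif18a, which damps chromosome movements, 4.63-fold, and Kif15, a spindle motor that can stand in for Kif11, 3.36-fold. Kif23 and Kif20a, both needed for cytokinesis, rose 3.05-fold and 1.96-fold, and Kif14 and Kif20b, which also act in cytokinesis, 2.31-fold and 2.601-fold. Kif20a had the smallest change of the group, at 412, 654 and 824 normalized counts in mice 1, 2 and 3, 1491, 1339 and 983 in ssNM-Rs 2, 3 and 6, and 1133, 1532 and 935 in lsNM-Rs 1, 4 and 5.

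Of the 19 centromere and kinetochore genes, 17 were higher and 1 was lower in NM-Rs (median 1.24), and without mouse 1 the counts were 16 and 1. Cenpf, a large protein of the outer kinetochore that accumulates through G2, stood at 546, 1136 and 1353 normalized counts in mice 1, 2 and 3, 17497, 14506 and 12366 in ssNM-Rs 2, 3 and 6, and 12436, 19336 and 12683 in lsNM-Rs 1, 4 and 5. The groups lay far apart, and the means differed 14.6-fold (log2 fold change 3.95 ± 0.27 (SE), adjusted p = 5.3e-07). Cenpe, the kinetochore motor that gathers chromosomes at the spindle equator, stood at 509.7, 786 and 1011 normalized counts in mice 1, 2 and 3, 6103, 4869 and 4864 in ssNM-Rs 2, 3 and 6, and 4726, 6646 and 4941 in lsNM-Rs 1, 4 and 5, and the groups did not overlap (log2 fold change 2.84 ± 0.20 (SE), adjusted p = 6.5e-07). Cenpa, the histone H3 variant that marks the centromere, was at 617, 894 and 1178 normalized counts in mice 1, 2 and 3, 1959.6, 1869 and 2026 in ssNM-Rs 2, 3 and 6, and 1554, 1998 and 1881 in lsNM-Rs 1, 4 and 5. All NM-R values were above the highest mouse, by 2.099-fold in the means (log2 fold change 1.11 ± 0.18 (SE), adjusted p = 0.00021). The inner kinetochore genes Cenpt, Cenph, Cenpl, Cenpw, Cenpm, Cenpk, Cenpn, Cenpo and Cenpp rose between 1.75-fold in Cenpp and 6.02-fold in Cenpt. The 3 subunits of the Ska complex, which couples kinetochores to shortening microtubules, rose 1.96-fold in Ska1, 2.004-fold in Ska3 and 3.001-fold in Ska2. Cenpj, a centriole protein, and Cenpv rose 2.02-fold and 1.85-fold. Cenpq, a subunit of the same inner complex, went the other way, with 275 ± 50.3 (SD, n = 3) in mice and 184 ± 22.3 (SD, n = 6) in NM-Rs (log2 fold change -0.57 ± 0.13 (SE), adjusted p = 0.00273). Cenpb, which binds satellite DNA, was at 1832 ± 176 (SD, n = 3) in mice and 1545 ± 209.9 (SD, n = 6) in NM-Rs and was not called (adjusted p = 0.065 in limma), with adjusted p values of 0.049 without mouse 3 and 0.0296 without lsNM-R 1.

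Condensin and the SMC proteins, ring-shaped ATPases that fold and hold chromosomes, had 9 members higher and 2 lower (median 1.16). Ncaph, the bridging subunit of condensin I, stood at 342, 568 and 719 normalized counts in mice 1, 2 and 3, 5449, 4449.9 and 3766 in ssNM-Rs 2, 3 and 6, and 4230.1, 4815 and 3814 in lsNM-Rs 1, 4 and 5. The groups did not overlap, and the means differed 8.14-fold (log2 fold change 3.08 ± 0.21 (SE), adjusted p = 5.3e-07). Ncapg and Ncapd2, the other subunits of condensin I alone, rose 4.34-fold and 3.28-fold. The subunits of condensin II rose less, with 2.33-fold for Ncaph2, 2.22-fold for Ncapg2 and 1.92-fold for Ncapd3, though the difference between both complexes was not tested. Smc2, which both condensins share, was at 805, 1369 and 1628 normalized counts in mice 1, 2 and 3, 2892, 2108 and 1936 in ssNM-Rs 2, 3 and 6, and 2853, 3521 and 2839 in lsNM-Rs 1, 4 and 5 (log2 fold change 1.12 ± 0.21 (SE), adjusted p = 0.0008), with every NM-R above every mouse. Smc3 of the cohesin ring rose 2.34-fold and Smc5 of the DNA repair complex 1.305-fold, while its partner Smc6 was at 2144 ± 26.5 (SD, n = 3) in mice and 1615 ± 249 (SD, n = 6) in NM-Rs (log2 fold change -0.42 ± 0.09 (SE), adjusted p = 0.00168). Smc1b, the meiotic cohesin subunit, had 64 reads in the 3 mice and 2 in the 6 NM-Rs, a mouse to NM-R ratio of 74.7 with a 95% exact interval of 19.9 to 630.2 that covers counting error only.

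Of the 6 cyclins, 4 were higher and 1 lower in NM-Rs (median 1.28). Ccnb2, a mitotic B-type cyclin, stood at 395, 849 and 1129 normalized counts in mice 1, 2 and 3, 3453, 2630.3 and 2786 in ssNM-Rs 2, 3 and 6, and 2617, 3249 and 2582 in lsNM-Rs 1, 4 and 5. Mouse 1 was the lowest of the mice, and all NM-Rs lay above mouse 3, 3.65-fold in the means (log2 fold change 1.98 ± 0.27 (SE), adjusted p = 8.1e-05). Ccne1 and Ccne2 encode the E-type cyclins of S phase entry, and Ccne1 was at 222, 493 and 696 normalized counts in mice 1, 2 and 3, 1977, 1584 and 1353 in ssNM-Rs 2, 3 and 6, and 1612, 1865 and 1647 in lsNM-Rs 1, 4 and 5, apart from the mice in all 6 NM-Rs (log2 fold change 1.97 ± 0.30 (SE), adjusted p = 0.00015). Ccne2 stood at 88.3, 302 and 428 normalized counts in mice 1, 2 and 3, 991, 854 and 705 in ssNM-Rs 2, 3 and 6, and 948, 1150.1 and 918 in lsNM-Rs 1, 4 and 5. Mouse 1 was far below the other mice, and the log2 fold change of Ccne2 was 2.02 with it and 1.35 without it (adjusted p = 0.001 and 1.6e-04 in limma). Of the D-type cyclins, 1 was higher, 1 was not called and 1 was lower. Ccnd3, the D-type cyclin known for erythroid and lymphoid cells, was at 2029.9, 2923 and 3649 normalized counts in mice 1, 2 and 3, 4664, 3942 and 3915 in ssNM-Rs 2, 3 and 6, and 4301, 4265 and 4121 in lsNM-Rs 1, 4 and 5, above every mouse in every NM-R (log2 fold change 0.59 ± 0.16 (SE), adjusted p = 0.0067). Ccnd2 was at 2818 ± 151 (SD, n = 3) in mice and 2579 ± 248 (SD, n = 6) in NM-Rs and was not called (adjusted p = 0.222 in limma). Ccnd1 stood at 1759, 1545 and 1682 normalized counts in mice 1, 2 and 3, 1231, 1548 and 719 in ssNM-Rs 2, 3 and 6, and 672, 1134 and 1150.0 in lsNM-Rs 1, 4 and 5. One small spleen reached the mouse range, and the lower call (log2 fold change -0.69 ± 0.24 (SE), adjusted p = 0.0246) was lost when any 1 of the mice was left out, with adjusted p values of 0.0825, 0.0506 and 0.0717 without mice 1, 2 and 3.

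Among the cell-cycle CDKs, 3 of 5 were higher and 0 lower (median 1.40). Cdk2, the partner of cyclins E and A, stood at 762, 899 and 939 normalized counts in mice 1, 2 and 3, 2485, 2136 and 2197 in ssNM-Rs 2, 3 and 6, and 1856, 2565 and 2534 in lsNM-Rs 1, 4 and 5. The groups did not overlap and differed 2.65-fold (log2 fold change 1.40 ± 0.12 (SE), adjusted p = 3e-06). Cdk6 stood at 261, 262 and 157 normalized counts in mice 1, 2 and 3, 944, 746 and 379 in ssNM-Rs 2, 3 and 6, and 918, 819 and 722 in lsNM-Rs 1, 4 and 5, with ssNM-R 6 lowest of the NM-Rs yet above the mice (log2 fold change 1.71 ± 0.27 (SE), adjusted p = 0.00023). Its relative Cdk4 was at 1453, 1651 and 1889.7 normalized counts in mice 1, 2 and 3, 1992, 1832 and 2121 in ssNM-Rs 2, 3 and 6, and 1686, 1952 and 1918 in lsNM-Rs 1, 4 and 5. The ranges overlapped and Cdk4 was not called (log2 fold change 0.21 ± 0.10 (SE), adjusted p = 0.0841), although the adjusted p was 0.0267 without mouse 3. Cdk7, the CDK-activating kinase, was at 645 ± 38.1 (SD, n = 3) in mice and 578 ± 67.7 (SD, n = 6) in NM-Rs and was not called (adjusted p = 0.182 in limma). Cdk3 is a kinase linked to exit from quiescence, and its gene is known to carry a premature stop codon in many laboratory mouse strains. It showed the largest positive fold change of the 112 members at the pseudocount of 1. It stood at 19.1, 8.696 and 10.5 normalized counts in mice 1, 2 and 3, 269, 312 and 347 in ssNM-Rs 2, 3 and 6, and 251, 229 and 278 in lsNM-Rs 1, 4 and 5, which is 22.1-fold in the means (log2 fold change 4.42 ± 0.23 (SE), adjusted p = 7.8e-08).

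The CDK inhibitors fell into 3 that were higher and 3 that were not called. Cdkn2c, which blocks Cdk4 and Cdk6 and is known in erythroid and lymphoid differentiation, stood at 291, 425 and 554 normalized counts in mice 1, 2 and 3, 1460.5, 1177 and 1113 in ssNM-Rs 2, 3 and 6, and 1208, 1556 and 1068 in lsNM-Rs 1, 4 and 5. Each NM-R was above each mouse (log2 fold change 1.61 ± 0.20 (SE), adjusted p = 3.4e-05). Cdkn3, a phosphatase that acts on Cdk2 and is itself made in dividing cells, was at 89.3, 159.8 and 217 normalized counts in mice 1, 2 and 3, 789, 637 and 665 in ssNM-Rs 2, 3 and 6, and 629.9, 755 and 652 in lsNM-Rs 1, 4 and 5, 4.43-fold higher in NM-Rs (log2 fold change 2.22 ± 0.23 (SE), adjusted p = 1e-05). Cdkn2b, the p15 inhibitor, was low in both species at 20.1, 15.2 and 14.7 normalized counts in mice 1, 2 and 3, 38.3, 67.6 and 36.02 in ssNM-Rs 2, 3 and 6, and 26.8, 62.8 and 47.03 in lsNM-Rs 1, 4 and 5, and the groups did not overlap (log2 fold change 1.37 ± 0.31 (SE), adjusted p = 0.00248). The general inhibitors Cdkn1a (p21), Cdkn1b (p27) and Cdkn1c (p57) were not called. Cdkn1b was at 2061 ± 212 (SD, n = 3) in mice and 2023 ± 199 (SD, n = 6) in NM-Rs, with a 95% interval of the log2 difference from -0.25 to 0.20. Cdkn1a stood at 172, 171 and 175 normalized counts in mice 1, 2 and 3, 98.5, 129 and 283 in ssNM-Rs 2, 3 and 6, and 175, 154 and 216 in lsNM-Rs 1, 4 and 5, with ssNM-R 6 far above the other small spleens and an interval from -0.69 to 0.59. Cdkn1c was at 56.6 ± 6.44 (SD, n = 3) in mice and 42.05 ± 15.02 (SD, n = 6) in NM-Rs (adjusted p = 0.153 in limma) and was called lower without ssNM-R 6 (adjusted p = 0.0193).

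Of the 8 subunits of the anaphase-promoting complex, 6 were lower and 2 higher in NM-Rs (median -0.91). Anapc5, a scaffold subunit, stood at 3611, 3933 and 4284 normalized counts in mice 1, 2 and 3, 898, 1072 and 968 in ssNM-Rs 2, 3 and 6, and 777, 908 and 813 in lsNM-Rs 1, 4 and 5. The NM-Rs averaged 0.2298 of the mice and the groups did not overlap (log2 fold change -2.12 ± 0.09 (SE), adjusted p = 2.7e-08). Anapc1, the largest scaffold subunit, was at 2674, 2761 and 2535 normalized counts in mice 1, 2 and 3, 1370.2, 1201 and 993 in ssNM-Rs 2, 3 and 6, and 1210.4, 1443 and 1215 in lsNM-Rs 1, 4 and 5, with every NM-R below every mouse (log2 fold change -1.11 ± 0.11 (SE), adjusted p = 7.4e-06). Anapc16 was at 0.328 of the mouse mean, the catalytic pair Anapc11 and Anapc2 at 0.4999 and 0.574, and Anapc4 at 0.624. Anapc7 and Anapc13 rose 1.33-fold and 1.502-fold. The mice varied little in these genes, with a median coefficient of variation of 6.16%. Of 7 further subunits and regulators of the complex, Cdc23 was lower (1039.6 against 515 in the species means), while Fbxo5, the inhibitor of the complex, and its ubiquitin-conjugating enzymes Ube2c and Ube2s were higher (517 against 1606, 1236 against 2541 and 885 against 2948). The subunits Cdc26 and Cdc27 and the activator Fzr1 were not called (adjusted p = 0.520, 0.369 and 0.237 in limma).

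The remaining members were placed in other roles by their symbols, not by a check of each gene's function. Of 24 other kinesins, many of which carry vesicles, organelles or ciliary cargo, 12 were higher and 8 lower. Their median was 0.38, or 0.74 over the 22 that averaged 10 or more over the spleens. Kif21b, a kinesin of neurons and lymphocytes, stood at 7068, 6955 and 6177 normalized counts in mice 1, 2 and 3, 332, 495 and 213 in ssNM-Rs 2, 3 and 6, and 779.6, 396 and 381 in lsNM-Rs 1, 4 and 5. The mouse mean was far above every NM-R, which held 0.0643 of it (log2 fold change -4.07 ± 0.28 (SE), adjusted p = 5.1e-07). Kif19, a kinesin of motile cilia, was at 91.4 ± 24.4 (SD, n = 3) in mice and 9.302 ± 3.24 (SD, n = 6) in NM-Rs. Kif26a, which lacks motor activity, was at 105, 109 and 94.4 normalized counts in mice 1, 2 and 3, 1379.8, 1242 and 1382 in ssNM-Rs 2, 3 and 6, and 1095, 1112 and 1234 in lsNM-Rs 1, 4 and 5, 12.1-fold higher in NM-Rs (log2 fold change 3.58 ± 0.09 (SE), adjusted p = 1e-09), and Kif3a, a motor of cilia, rose 9.76-fold. Kif12 had 0 reads in the 3 mice and 108 in the NM-Rs, which is at least 15.4-fold higher when the mice are set to 3 reads over the group. Of the 10 transcriptional and other CDKs, 0 were higher and 6 lower (median -0.53). Cdk14, a membrane-bound kinase of Wnt signalling, stood at 749.6, 628 and 616 normalized counts in mice 1, 2 and 3, 92.99, 61.6 and 73.9 in ssNM-Rs 2, 3 and 6, and 49.4, 80.4 and 117 in lsNM-Rs 1, 4 and 5, with no overlap (log2 fold change -3.10 ± 0.25 (SE), adjusted p = 1.5e-06), and Cdk5 was at 444 ± 9.45 (SD, n = 3) in mice and 193 ± 17.3 (SD, n = 6) in NM-Rs (log2 fold change -1.21 ± 0.10 (SE), adjusted p = 2.6e-06). The Mediator kinases Cdk8 and Cdk19 were at 0.632 and 0.761 of the mouse mean, and Cdk13, which acts on RNA polymerase II, at 0.581. Of the 6 regulators and genes named after a CDK or cyclin, which include Cdk5r1, an activating subunit of Cdk5, 2 were higher and 4 lower, from 855 ± 93.8 (SD, n = 3) in mice and 303 ± 24.7 (SD, n = 6) in NM-Rs for Cdkn2aipnl to 877 ± 64.4 (SD, n = 3) in mice and 1515 ± 220.4 (SD, n = 6) in NM-Rs for Cdk5rap2, a centrosome protein. Ccnb1ip1 had 0 reads in the mice and 22 in the NM-Rs, at least 3.14-fold higher by the same floor.

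**Figure D3:**
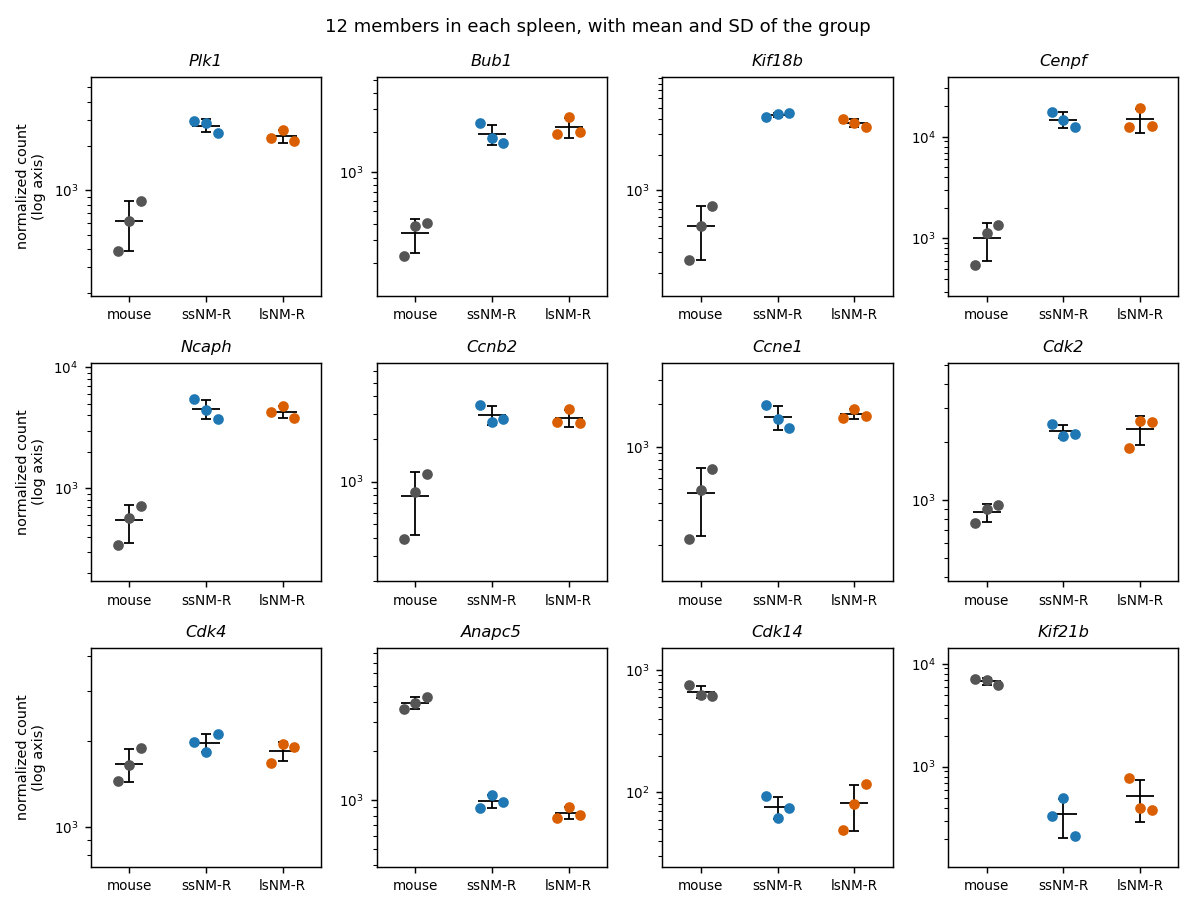
Normalized counts (log axis) of 12 members in each spleen, with 1 point per animal and a bar for the mean ± SD of 3 animals per group. In Plk1, Bub1, Kif18b, Cenpf, Ncaph, Ccnb2, Ccne1 and Cdk2 all NM-Rs lie above all mice, in Anapc5, Cdk14 and Kif21b all lie below, and in Cdk4 the groups overlap.

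Genes of the same machinery that carry other names were examined from 4 lists. Of 28 further mitosis genes, 24 were higher and 2 lower in NM-Rs, with a median log2 fold change of 1.82. They include Tacc3 and Aspm of the spindle (732 against 5473 and 676 against 3934, mean of mice against mean of NM-Rs), Ndc80 and Knl1 of the outer kinetochore (301 against 1009 and 643 against 2434), and Top2a, which untangles sister DNA (3729.9 against 9242). Birc5, Incenp and Cdca8 of the chromosomal passenger complex, which binds Aurkb, also rose, Incenp most (1339.8 against 5515), while Zw10 and Mad1l1 of the checkpoint were lower (666 against 292 and 360.4 against 260.1). Of 9 cohesin genes, 5 were higher and 1 lower (median 0.32), with Rad21 at 3650.1 against 10835 and the loader Nipbl at 3569 against 2649. Of 25 cell-cycle transcription factors and CDK regulators, 16 were higher and 5 lower (median 0.95). Mybl2, which binds the MuvB core in dividing cells, stood at 495 against 4893, the repressor E2f7 at 143 against 1537, and the Cdk1-inhibiting kinase Wee1 at 202 against 1199, whereas E2f2, E2f3 and Skp2 were lower (2834 against 1386, 359 against 185 and 361 against 182).

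The mice did not form a tight group in the mitotic genes. Mouse 1 was the lowest of the 3 in 65 of the 112 members (58.0%), against 38.4% of all genes, and in all 9 mitotic kinesins, in 17 of 19 centromere and kinetochore genes and in all 28 further mitosis genes. The median ratio of mouse 3 to mouse 1 was 2.00 in the mitotic kinesins, 1.98 in the centromere and kinetochore genes, 2.33 in the cyclins, 0.87 in the other kinesins and 0.98 over all genes. The median coefficient of variation of the mitotic kinesins was 32.8% among the mice and 14.2% within the NM-R cohorts. Over all 112 members it was 15.5% and 13.8%, and in the other kinesins 13.1% and 18.2%. The mouse 3 to mouse 1 ratio was 3.61 in the erythroid markers, and mouse 1 was lowest in all 16 of them, and in 10 of 13 T cell markers, while it was lowest in 4 of 11 B cell markers. Without mouse 1 the medians were 1.54 for the mitotic kinesins, 1.10 for the centromere and kinetochore genes and 0.86 for the cyclins, and 9, 16 and 4 of these genes were still higher in NM-Rs.

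Erythroid markers moved with the mitotic groups between the species too. All 16 markers analysed were higher in NM-Rs, with a median log2 fold change of 2.94, whereas all 11 B cell and all 13 T cell markers were lower (medians -3.64 and -1.98), as were 6 of 11 germinal centre and plasmablast markers, with 1 higher. Granulocyte markers were 7 higher and 2 lower of 9, and stem and progenitor markers 4 higher and 1 lower of 7. Megakaryocyte markers were 3 higher and 2 lower of 5, and macrophage markers 4 higher and 4 lower of 10. Nfe2 and Gfi1b, counted here as erythroid, are used by the authors as megakaryocyte genes. Per 1000 summed normalized counts of the erythroid markers, the 9 mitotic kinesins summed to 93.7, 63.4 and 63.5 in mice 1, 2 and 3 and to 61.3 to 75.3 in the NM-Rs, so that mice 2 and 3 lay inside the NM-R range and mouse 1 above it. The 28 further mitosis genes summed to 475, 305 and 297 in the mice and 242 to 279 in NM-Rs on that scale, with every mouse above every NM-R. The centromere and kinetochore genes gave 194, 102 and 94.3 against 106 to 129, so that mouse 1 lay above every NM-R and mice 2 and 3 below every NM-R. This sum leans on 1 gene, since Cenpf alone made up 17497 of 35981 normalized counts in ssNM-R 2 and 546 of 5843 in mouse 1. Such sums weigh genes by their counts, so they do not describe each gene of a role. In the condensin and SMC genes (381, 199 and 178 against 122 to 140), the mitotic kinases and checkpoint genes (92.8, 52.9 and 48.6 against 30.8 to 36.5), the cyclins (242, 127 and 114 against 45.3 to 60.6) and the anaphase-promoting complex (366, 158 and 131 against 18.3 to 24.4) every mouse was above every NM-R on that scale. The same held in the other kinesins (480, 190 and 134 against 32.5 to 47.1). It held too in the transcriptional and other CDKs (314, 132 and 102 against 21.0 to 29.3). So it did in the CDK inhibitors, the cell-cycle CDKs and the regulators and genes named after a CDK or cyclin. The erythroid sum was higher in every NM-R than in every mouse, so a list that rises less than these markers falls on this scale. The part of the erythroid markers in the differences was not tested.

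**Figure D4:**
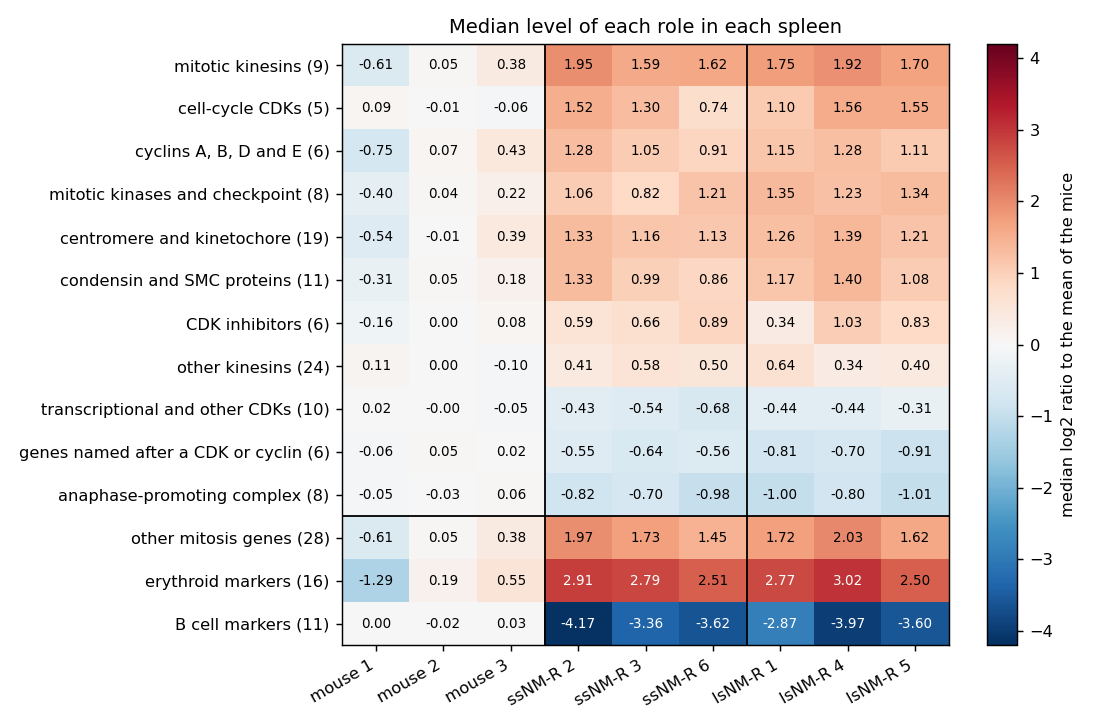
Median over the genes of each role of the log2 ratio to the mean of the mice, for each of the 9 spleens, with further mitosis genes and erythroid and B cell markers under the line. Mouse 1 is below the other mice in the mitotic roles (-0.61 in the mitotic kinesins), except the cell-cycle CDKs (0.09), and in the erythroid markers (-1.29). All 6 NM-Rs are positive in the mitotic roles and negative in the anaphase-promoting complex.

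Among the NM-Rs, ssNM-R 2 and lsNM-R 4 held the highest values of most mitotic genes. Of the 28 further mitosis genes, 14 were highest in ssNM-R 2 and 13 in lsNM-R 4. Of the 9 mitotic kinesins, 3 were highest in ssNM-R 2, 5 in lsNM-R 4 and 1 in ssNM-R 6, and 9 of 19 centromere and kinetochore genes were highest in lsNM-R 4. The cell-cycle CDKs differed, with 3 of 5 highest in ssNM-R 6. Over all 12946 genes, 2395 were highest in ssNM-R 2 and 2236 in lsNM-R 4. Cenpf, for example, was at 17497 in ssNM-R 2 and 19336 in lsNM-R 4, and at 12366 to 14506 in the other 4. The same 2 spleens had the highest sums of erythroid markers (322369 and 309411, against 217090.0 to 261244 in the others). They came from the oldest animals, aged 30 and 29 months, and their libraries held 8985705 and 16883689 reads. Spleen lsNM-R 4 was also from the only female among the animals. The part of age, sex, markers or depth was not tested.

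Whether spleen enlargement goes with cell division genes was addressed by comparing lsNM-R with ssNM-R. No member was called in either direction in limma, and no gene of the table was (0.0% higher and 0.0% lower), with a smallest adjusted p of 0.445 among members and 0.429 among all genes. At an unadjusted p under 0.05, 4 members were higher and 3 lower, or 7 of 112, where 8.79% of all genes passed. edgeR and DESeq2 on the recovered reads also called 0 members, with 5 and 4 members at an unadjusted p under 0.05, while over all genes edgeR called 0 and DESeq2 57. The 7 became 3 without lsNM-R 1 and 11 without ssNM-R 2. The cohorts did not overlap in 14 members, 7 in each direction, where 13.1% of all genes did not overlap. The median log2 fold change was -0.02 over the members, and 55 of the 112 were positive.

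The intervals bound the differences between small and enlarged spleens, but their width rests on a spread estimated over all 9 spleens, mice included. A gene that varies among the mice thus has a wider interval, and one that is flat in the mice a narrower one. No member was called between the cohorts under any of 23 settings, among them a fit of the NM-R spleens alone. In 98 of the 112 members the 95% interval lay within a 2-fold change in either direction. The log2 difference of Plk1 was -0.24 (95% interval -0.77 to 0.29), of Ccnb2 -0.07 (95% interval -0.78 to 0.64), of Cenpe 0.03 (95% interval -0.49 to 0.56) and of Bub1 0.18 (95% interval -0.33 to 0.70). Those of Cdk2 and Cdk4 were 0.02 (95% interval -0.30 to 0.34) and -0.10 (95% interval -0.36 to 0.16). The median over the 9 mitotic kinesins was -0.08, over the centromere and kinetochore genes -0.03, over the condensin and SMC genes 0.15 and over the erythroid markers -0.05. The 5 members with the smallest unadjusted p were of several roles. Cdk10, a kinase of cyclin M, was at 578, 604 and 547 in the small and 484, 457 and 449 in the enlarged spleens, a log2 difference of -0.31 (95% interval -0.53 to -0.10), and all enlarged spleens lay below all small ones. Smc6 was at 1518, 1461 and 1317 and 1987, 1835 and 1575, a difference of 0.32 (95% interval 0.09 to 0.56), and Cdk19 at 1121, 1087 and 938 and 1240.1, 1206 and 1359, a difference of 0.28 (95% interval 0.06 to 0.49), both with all enlarged spleens above all small ones. Kif12 and Kif27 differed by -0.79 (95% interval -1.50 to -0.08) and 0.78 (95% interval 0.05 to 1.51), at no more than 57.9 normalized counts in any spleen. Kif12 had 0 reads in the mice, which therefore added no spread to its interval. None of these 5 passed the adjusted threshold.

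**Figure D5:**
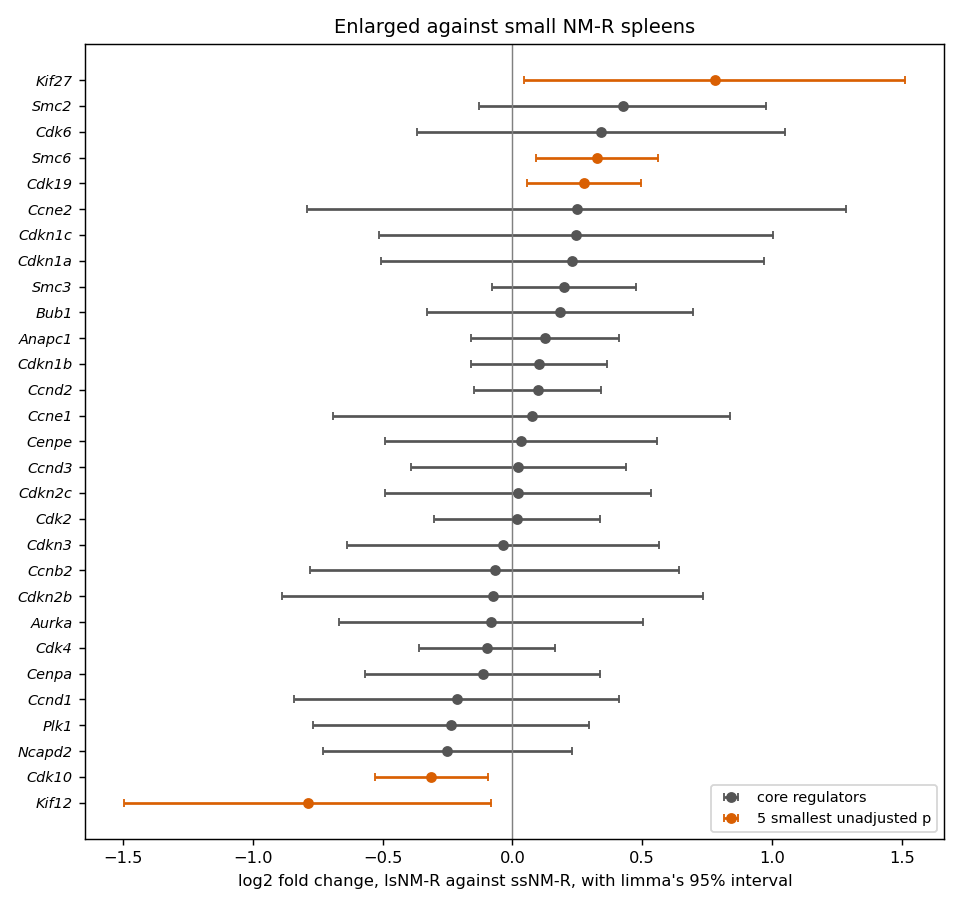
Log2 fold change of lsNM-R (3 spleens) against ssNM-R (3 spleens) with limma's 95% interval, for 24 core regulators of the cell cycle and the 5 members with the smallest unadjusted p. The intervals of all 24 core regulators include 0. Those of the other 5 do not, before adjustment over all genes, which follows from their choice by p.

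Each cohort was also compared with the mice on its own, and both comparisons share the same 3 mice. In ssNM-R 66 members were higher and 27 lower, against 38.0% and 37.5% of all genes, and in lsNM-R 65 were higher and 28 lower, against 38.1% and 37.0%. Plk1 averaged 2754 ± 277 in ssNM-R and 2334 ± 228 in lsNM-R (SD, n = 3 each). In Cenpf the group means were 14789 ± 2577 and 14819 ± 3915 (SD, n = 3 each), against 1012 ± 418 in mice, and in Anapc5 they were 979 ± 87.3 and 833 ± 67.9, against 3943 ± 336. Both cohorts thus stood on the same side of the mice in each of these genes.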

How the data were processed

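Per the methods and labels, the authors mapped mouse reads to mm9 and NM-R reads to hetGla2 using STAR 2.5.3a and counted genes with HTSeq 0.10.0. NM-R genes took mouse homologue names, and DESeq2 size factors from all 9 libraries scaled the counts. The signal values that the authors deposited are these normalized counts, not divided by gene length. The strand setting is not given in the sources used here, so antisense partners cannot be told apart. The labels name HiSeq2500 mRNA libraries, the methods NovaSeq total RNA libraries. In each library 100% of values were whole multiples of the smallest value above 0, within 1e-06 of a read, which gave whole reads for edgeR 4.0.16 and DESeq2 1.42.0.

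Groups came from the sample labels. The signal values were taken as log2(value + 1) without a filter on low values (107 of the 112 members had a mean of at least 10) and fitted in limma 3.58.1 (R 4.3.3) with 1 mean per group over 9 spleens, a variance trend, 2-sided tests and Benjamini-Hochberg adjustment over 12946 genes, a procedure tested on simulated data. Nothing besides separate animals defines the replicates. Folds are ratios of group means. The members, lists and named genes (core regulators, the 2 highest and 2 lowest changes per role, the 5 smallest p between cohorts) were chosen with earlier results of these data known, and other genes were named after their values were seen. Alternatives are given under the dependence on processing.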

Additional observations from a re-analysis of the deposited data

Results flagged for a closer look

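Among 57 members examined over the 6 NM-R spleens, 2 had 1 spleen far from the others by Dixon's ratio of the gap to the whole range, a 95% criterion that chance exceeds in about 1 in 20 groups. In Cenpa the ratio was 0.668, with lsNM-R 1 lowest at 1554 normalized counts and the other 5 spleens at 1869 to 2026. In Kif19 it was 0.803, with ssNM-R 6 highest at 15.8 normalized counts and the others at 7.06 to 8.78.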

How the results depend on the processing

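Leaving out 1 spleen at a time gave 65 to 68 members higher and 27 to 30 lower in NM-R than in mouse, with a median log2 fold change of 0.72 (without mouse 1) to 1.05 (without mouse 3). For ssNM-R these ranges were 64 to 67, 25 to 29 and 0.75 to 0.99, for lsNM-R 63 to 66, 23 to 29 and 0.78 to 1.07, and between the cohorts no member was called under any of them (0 to 0 higher, 0 to 0 lower, median -0.05 to 0.05). With a replicate block the medians were 0.79 for ssNM-R, 1.11 for lsNM-R and 0.14 between the cohorts, and the spleens share only a number, since same-numbered spleens had correlations of -0.0045 to 0.0101 in their deviations from group means. That block gave 68 members higher and 28 lower in NM-R, and called Aurka higher and Plk3 lower. Upper-quartile scaling moved the median of all genes to 0.10, the median of the members for lsNM-R to 1.05, and called Aurka, Cdk4 and Cdk10 higher. Under it the members' median for NM-R was 1.03, beside the 0.10 of all genes. With depth class as a term Ccnd1 was not called and Plk3 was called lower (adjusted p = 0.0767 and 0.0343 in limma), and the same total in each spleen called Cenpb lower (adjusted p = 0.0264 in limma). Cdkn1a, not called, changed sign to 0.0418 under the upper quartile, 0.0697 in edgeR and 0.0381 in DESeq2 and ranged from -0.27 to 0.11 when 1 spleen was left out, above 0 without ssNM-R 2, ssNM-R 3 or lsNM-R 4 (0.1059, 0.0090 and 0.0027). Cdkn1b gave 0.0677 under the upper quartile and ranged from -0.1036 to 0.0454 when 1 spleen was left out, above 0 without mouse 3 or lsNM-R 5 (0.0454 and 0.0044). The fitted changes of Kif12 and Smc1b depended on the pseudocount. Of 1248 alternative values of single genes, 1221 kept direction and call, 14 gained and 4 lost a call, and 9 changed sign; the cause was not tested. Depth limits Kif12, Kif6, Aurkc, Ccnb1ip1 and Smc1b, which had 3 reads or fewer in every library of 1 species.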
